A study of Mus musculus with 8 samples.

Results

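The genes described here are those through which the mouse controls its body iron and through which the liver takes up, stores and exports it. They are the 10 genes Hamp, Hamp2, Tfrc, Tfr2, Trf, Fth1, Ftl1, Slc40a1, Hfe and Bmp6, taken by name from the gene column of the scanner files. They were read by 14 probes on 23 spots, out of 55681 probes for 34836 names on the array. Liver RNA of 8 male mice was hybridised, 1 array per mouse, with 4 mice of the New Zealand Obese strain NZO/HiBomDife (NZO 003, 007, 009 and 011) and 4 mice of the lean strain C57BL/6 (B6 009, 010, 011 and 015). All mice were 6 weeks of age and all ate a high fat diet with 45% fat. No mouse on another diet was analysed here, so every difference below is between strains on that diet. The labels number the mice as separate animals and give no litter or cage. The study dealt with sequence variants at miRNA target sites and used liver expression in NZO and B6 among its measurements, and the comparison below takes the iron genes from these arrays.

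Hepcidin is the peptide hormone of iron balance. It is made by hepatocytes and blocks ferroportin, the product of Slc40a1 and the known iron exporter of cells, so that less iron enters the plasma from the gut, from macrophages and from the liver. Its gene Hamp is switched on by bone morphogenetic proteins, above all Bmp6 from sinusoidal endothelial cells, through receptors, the co-receptor hemojuvelin (Hfe2) and SMAD proteins, and by interleukin 6 through Stat3. Hfe and transferrin receptor 2 (Tfr2) sense iron-laden transferrin at the hepatocyte surface. The mouse has a second hepcidin gene beside the first, Hamp2, whose product has not shown the iron-lowering action of the Hamp peptide.

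The 2 hepcidin genes lie near each other on chromosome 7 and each was read by 1 probe, shown here because the Hamp2 probe was called between the strains and the Hamp probe was not. Both probes lie at the end of the coding part of the transcript and run through the stop codon. In the mm9 build the Hamp probe lies at chr7:31727490-31727549 and the Hamp2 probe at chr7:31707520-31707579, both on the minus strand. Capitals mark the bases at which the probes differ when aligned without gaps with an offset of 1 base.
Hamp probe: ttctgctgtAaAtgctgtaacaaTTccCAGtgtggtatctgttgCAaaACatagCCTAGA
Hamp2 probe: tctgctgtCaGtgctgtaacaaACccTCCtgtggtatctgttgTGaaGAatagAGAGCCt
Of 59 aligned bases 42 were identical (71.2%) and 17 differed. How far the transcript of one gene binds the probe of the other was not tested, and neither was whether NZO mice carry other bases under a probe.

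The promoters of both genes were compared because the letters through which Hamp is known to answer bone morphogenetic proteins and Stat3 lie close to its start. The sequences are RefSeq's for GRCm38.p6, a C57BL/6J assembly, and both lie on the minus strand. The stretch of Hamp is chr7:30944033-30944152 and ends 4 bases before the start of transcription, and that of Hamp2 is chr7:30924182-30924301 and ends 1 base before it. Capitals mark the GGCGCC of Hamp with the aligned bases of Hamp2, and the match to TTCNNNGAA.
Hamp promoter: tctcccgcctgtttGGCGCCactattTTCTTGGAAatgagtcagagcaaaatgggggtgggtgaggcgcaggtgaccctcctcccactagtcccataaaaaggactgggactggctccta
Hamp2 promoter: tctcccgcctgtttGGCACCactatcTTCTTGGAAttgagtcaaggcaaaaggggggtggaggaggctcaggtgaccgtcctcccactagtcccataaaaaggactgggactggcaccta
Over 120 bases 109 were identical, and over the 247 aligned bases before both start sites 227 were (91.9%). Both patterns read the same on either strand and do not overlap. GGCGCC, the letters of the known element for bone morphogenetic proteins, began 109 bases before the start of Hamp and was not found in the 300 bases of the Hamp2 promoter, where the aligned letters carry the substitution G4A, counted from the first base of GGCGCC. TTCNNNGAA, the general form of a Stat site, began 97 bases before the start of Hamp and 94 bases before that of Hamp2. Of 32851 promoters of the same length in the table, 11.9% held GGCGCC and 8.3% held TTCNNNGAA. A match describes the reference sequence only, and the NZO promoters were not analysed here.

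Levels are given as the log2 processed signal of a probe minus the array's 75th percentile, so that 1 unit is a 2-fold difference, and they may be compared between mice for 1 probe but not between probes. On this scale the log2 fold change is the NZO mean minus the B6 mean. A probe was tested when every array of NZO, of B6 or of both showed it well above background, and it was called when limma's adjusted p over all 27643 probes tested was at most 0.05 and the log2 fold change was at least 0.7 in size. Of the 14 probes 13 were tested and all 10 genes had a tested probe. By this call 1 of the 13 probes was higher in NZO and 0 were lower, where 4.34% of all probes tested were higher and 5.28% were lower. With limma's unadjusted p held to the same limits the members gave the same 1 and 0, where 5.17% of all probes were higher and 7.08% lower. The test named in the study's methods, also with unadjusted p and called the methods' t-test below, gave 1 and 0, with 1292 of all probes higher and 1610 lower. The fold change was above 0 at 11 of the 13 probes, as it was at 51.6% of all probes tested. The median of the 13 was 0.31 where that of all probes tested was 0.01. Tfrc, Trf and Ftl1 each entered with more than 1 tested probe, so the 13 are not separate genes. With quantile normalization or in the deposited table the fold change was above 0 at 9 of 13. In that table the median of all probes was -0.15, and 10 of the 13 lay above it.

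**Figure D1:**
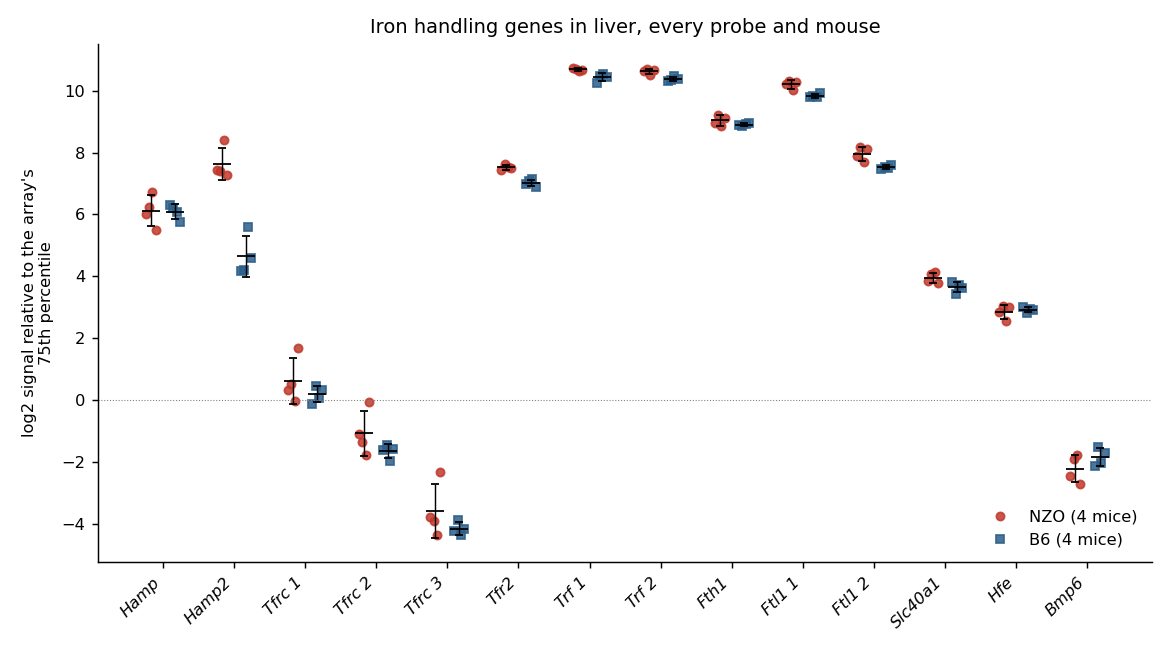
Level of each of the 14 probes in each mouse, as the log2 signal minus that array's 75th percentile (y axis); circles are the 4 NZO mice, squares the 4 B6 mice, and bars the mean with the SD. Heights of different probes are not comparable; at Hamp2 the NZO mice sit between 7.29 and 8.42 and the B6 mice between 4.18 and 5.61.

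Hamp2 was the only member called between the strains, and Hamp, the gene of the active hormone, was not called. The Hamp2 level was 7.44 in NZO 007, 7.41 in NZO 003, 8.42 in NZO 009 and 7.29 in NZO 011. It was 4.18 in B6 011, 4.21 in B6 010, 5.61 in B6 015 and 4.6 in B6 009. The lowest NZO mouse thus lay well above the highest B6 mouse, and within each strain 1 mouse stood above the other three, NZO 009 and B6 015. NZO averaged 7.64 ± 0.52 (SD, n = 4) against 4.65 ± 0.67 (SD, n = 4) for B6, which is a log2 fold change of 2.99 (SE 0.37, 95% interval 2.14 to 3.84) or 7.94-fold, with an adjusted p of 0.00105 by limma. Among all tested probes, ordered from the highest log2 fold change, the Hamp2 probe came 120th of 27643.

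The Hamp2 difference was seen within the batches that held both strains. Within the slide that held NZO 003, B6 010 and B6 015 it was 2.50, and within the 2 scan days it was 2.79 and 3.05. That slide was scanned on the first day, so these values overlap, and NZO 007 was the only NZO mouse of the second day. With scan day as a term the Hamp2 difference was 2.89 (adjusted p = 0.00225 by limma) and with slide as a random block 2.94 (adjusted p = 0.00161). With slide as a fixed term, where only those 3 arrays bear on the strain, it was 2.50 with an adjusted p of 0.156, which is no call. Leaving out 1 mouse at a time gave 2.73 to 3.31, with the highest value without B6 015, and the call was kept each time.

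Hamp was at 6.02, 6.24, 6.71 and 5.50 in NZO 007, 003, 009 and 011 and at 6.31, 6.21, 6.09 and 5.77 in B6 011, 010, 015 and 009. The B6 values lay inside the range of the NZO values. NZO averaged 6.12 ± 0.50 (SD, n = 4) against 6.10 ± 0.23 (SD, n = 4) for B6, a difference of 0.02 (SE 0.25, adjusted p = 0.967 by limma) with a 95% interval from -0.55 to 0.59. The sign of this small difference turned with the scaling, to -0.09 with quantile normalization and -0.22 with the deposited table, where the median of all probes itself moved to -0.15. Within strains the levels of Hamp and Hamp2 had a Pearson r of 0.37 over 8 arrays, and NZO 009 was highest and NZO 011 lowest of its strain for both genes. The 5 probes most like Hamp within strains were 2 probes of intergenic transcripts (r of 0.99 and 0.98), Setd1b (0.97), Pex11a (0.97), a gene of peroxisome division, and Ddhd1 (0.97), a phospholipase gene, picked as the top of 24452 probes over only 8 arrays, which share array and depth.

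**Figure D2:**
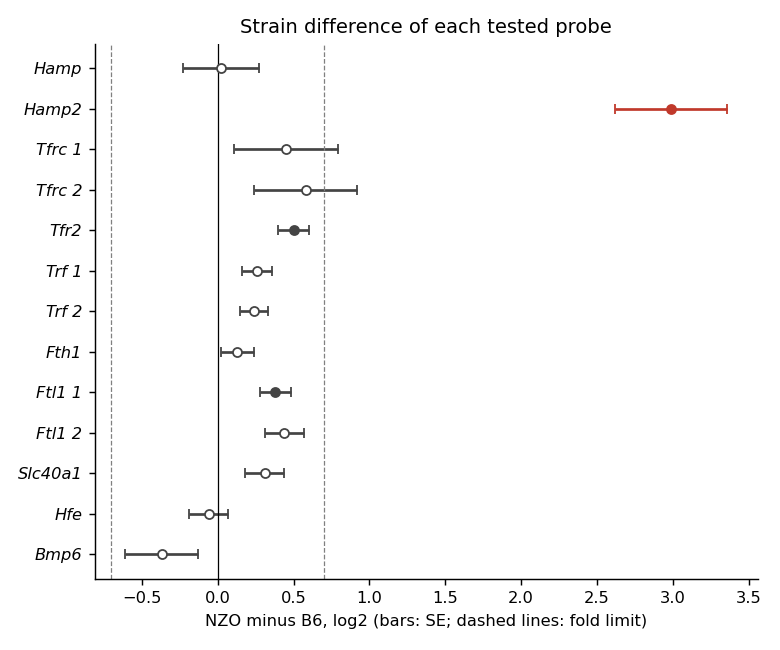
Log2 fold change of NZO against B6 for the 13 tested probes (x axis) with its SE; filled points have an adjusted p of at most 0.05, red marks the probe that was called, and dashed lines mark the fold limit of 0.7. Hamp2 lies at 2.99 and all other probes between -0.37 and 0.58.

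Of the genes that sense iron at the hepatocyte surface, Tfr2 had a small difference with little spread and Hfe had none that passed the test. Tfr2 was at 7.43, 7.64, 7.52 and 7.49 in NZO 007, 003, 009 and 011 and at 6.99, 7.07, 7.13 and 6.90 in B6 011, 010, 015 and 009. The strains did not overlap, as was the case at 6 of the 13 tested member probes, each with NZO above B6. Of all probes tested 11.3% had every NZO mouse above every B6 mouse and 10.7% had every NZO mouse below. The log2 fold change of Tfr2 was 0.50 (SE 0.10, adjusted p = 0.00999 by limma), 1.41-fold, which is under the fold limit, so Tfr2 was not called. Within the slide with both strains it was 0.54 and within the scan days 0.45 and 0.48, and in the deposited table it was 0.29 (adjusted p = 0.0911). Hfe, the product of the gene mutated in the commonest hereditary iron overload of humans, was at 2.83, 3.03, 2.55 and 3.02 in NZO 007, 003, 009 and 011 and between 2.8 and 3.0 in B6, with a difference of -0.06 (SE 0.13, adjusted p = 0.805) and a 95% interval from -0.35 to 0.24.

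Bmp6, the main iron-regulated ligand, had a dim probe in whole liver. Its level was -2.46, -1.90, -1.79 and -2.71 in NZO 007, 003, 009 and 011 and -2.13, -1.51, -2.05 and -1.70 in B6 011, 010, 015 and 009. The strains overlapped, and the difference of -0.37 (SE 0.24, adjusted p = 0.364 by limma) became -0.01 when the background was corrected by normexp. Bmp6 is made by sinusoidal endothelial cells, and of 7 markers of these cells 0 were called in either direction. The summed signal of those markers, led by Clec4g, reached 6.63 ± 0.19 in NZO against 6.53 ± 0.07 for B6 on the log2 scale (SD, n = 4 each). The median change of the 7 was -0.22, against the direction of the sum, with Clec4g at -0.23 (adjusted p = 0.397), Lyve1 at -0.62 (adjusted p = 0.0241) and Stab2 at 0.48 (adjusted p = 0.00889). The other tested probes of Stab2 went the opposite way, by -0.93 (adjusted p = 0.0508) and -0.44 (adjusted p = 0.48), so no direction can be given for Stab2.

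Tfrc, the receptor through which most cells take up transferrin-bound iron and whose mRNA is stabilised when cell iron is low, was uneven among the NZO mice. At the probe with the highest signal its level was 0.32 in NZO 007, 0.52 in NZO 003, -0.03 in NZO 009 and 1.68 in NZO 011, and -0.13, 0.46, 0.08 and 0.31 in B6 011, 010, 015 and 009. NZO 011 was the highest of all 8 mice at each of the 3 Tfrc probes, and NZO 009 was the lowest NZO mouse at each. The log2 fold change was 0.45 (SE 0.34, adjusted p = 0.447 by limma) at this probe and 0.58 (SE 0.34, adjusted p = 0.311) at the second, and without NZO 011 these became 0.09 and 0.24. The third probe, well above background on 2 NZO and 3 B6 arrays, was not tested. The 3 probes followed each other within strains with r from 0.93 to 0.98 over 8 arrays. Tfrc and Hamp had an r of -0.84 within strains over 8 arrays. Among NZO mice NZO 011 was highest for Tfrc and lowest for Hamp and NZO 009 the reverse, while among B6 mice B6 010 was highest for Tfrc (0.46) and next to the highest for Hamp (6.21).

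**Figure D3:**
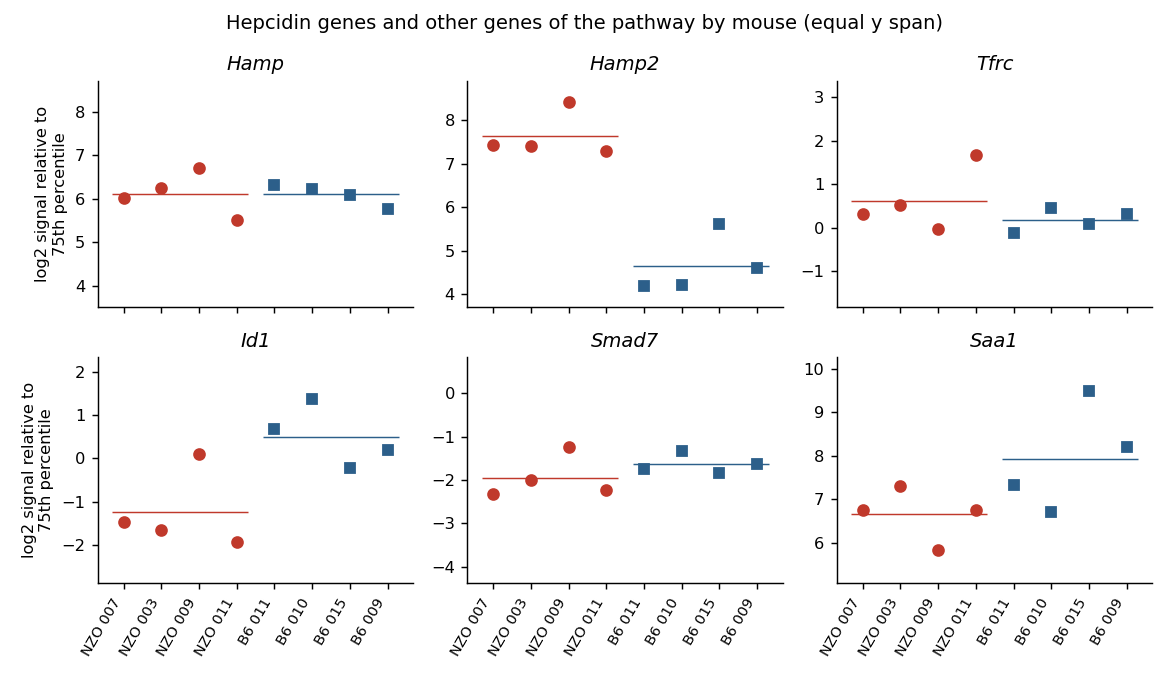
Level of Hamp, Hamp2, Tfrc (the probe with the highest signal), Id1, Smad7 and Saa1 in each mouse (log2 signal minus that array's 75th percentile; all panels span the same number of log2 units), with circles for NZO, squares for B6 and lines at the strain means. Hamp2 separates the strains, Tfrc peaks at 1.68 in NZO 011, Id1 reaches 0.11 in NZO 009 against -1.46 or less in the other NZO mice, and Saa1 peaks at 9.49 in B6 015.

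The carriers and stores of iron had slightly higher means in NZO, and none was called. With quantile normalization or in the deposited table of raw medians these differences shrank or, at a Trf probe and Fth1, turned in sign. In that table the median of all probes was itself -0.15. Trf, transferrin, the iron carrier of plasma, was 0.26 higher (SE 0.10, adjusted p = 0.118 by limma) at a probe with 10.65 to 10.75 in NZO and 10.25 to 10.55 in B6, and this became 0.01 with quantile normalization and in the deposited table. At its other probe it was 0.24 higher (SE 0.09, adjusted p = 0.133), which became -0.03 with quantile normalization and 0.02 in the deposited table. Ftl1, ferritin light chain, was at 10.21, 10.33, 10.01 and 10.29 in NZO 007, 003, 009 and 011 and at 9.80, 9.82, 9.79 and 9.92 in B6 011, 010, 015 and 009, without overlap, with a log2 fold change of 0.38 (SE 0.10, adjusted p = 0.0422). Leaving out 1 mouse at a time moved this p to between 0.0262 and 0.107, and quantile normalization moved it to 0.149. In the deposited table the change was 0.14 (adjusted p = 0.432). At the second Ftl1 probe it was 0.44 (SE 0.13, adjusted p = 0.0542), again without overlap, and the probes followed each other with r of 0.96 within strains. The first Ftl1 probe is listed by the file for several predicted copies of the gene too, so its signal cannot be assigned to Ftl1 alone. Fth1, ferritin heavy chain, was between 8.86 and 9.22 in NZO and between 8.85 and 8.97 in B6, a difference of 0.13 (SE 0.11, adjusted p = 0.478) that turned to -0.15 in the deposited table. Of the 13 member probes tested, 3 had an adjusted p of at most 0.05 whatever the fold (Hamp2, Tfr2 and the first Ftl1 probe), where 14.2% of all probes tested had.

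Slc40a1, ferroportin, was at 3.84, 4.06, 4.13 and 3.79 in NZO 007, 003, 009 and 011 and at 3.82, 3.44, 3.73 and 3.61 in B6 011, 010, 015 and 009. B6 011 lay within the NZO range, and the difference was 0.31 (SE 0.13, adjusted p = 0.156 by limma). This difference became 0.20 with normexp correction and 0.07 (adjusted p = 0.83) in the deposited table. Kupffer cells, the macrophages of the liver that recycle iron from red cells, express Slc40a1 and Hmox1 strongly. Of 10 markers of these cells 3 were called lower in NZO, Clec4f (-1.13), Marco (-1.83) and Cd5l (-0.71), and 0 higher. The shares over all named genes were 5.01% lower and 4.42% higher. Lyz2 went the other way, by 0.41 (adjusted p = 0.109 by limma), and Timd4 differed by only -0.18 (adjusted p = 0.54). The summed signal of the 10 markers, led by Cd5l, reached 6.82 ± 0.11 in NZO against 7.56 ± 0.22 for B6 (SD, n = 4 each). None of the 10 was at background on all arrays. Fewer cells of a type and less RNA per cell cannot be told apart in whole liver, and the part of Kupffer cells in the Slc40a1 values was not tested. For hepatocytes, which the tissue label implies, 5 of 5 markers were above background on every array and 0 were called, with summed signals of 11.91 ± 0.02 in NZO and 11.73 ± 0.16 in B6 (SD, n = 4 each).

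Among red cell genes, some of which are expressed in precursors together with Tfrc, some but not all gave more signal in NZO. Of 6 tested markers of red cells and precursors 3 were called higher, Hba-a1 (1.00), Hbb-bt (0.91) and Alas2 (0.90), and 0 lower. Of all named genes 4.42% were called higher and 5.01% lower. Hbb-b1 (0.81, adjusted p = 0.0704 by limma) and Slc4a1 (0.61, adjusted p = 0.322) were not called. Ermap went the other way, by -0.25 (adjusted p = 0.392). The summed signal over 8 genes of this list, led by Hba-a1, was 8.95, 8.69, 9.30 and 8.54 in NZO 007, 003, 009 and 011 and 8.16, 7.75, 7.69 and 8.04 in B6 011, 010, 015 and 009. Epb4.2, which marks precursors, was at background on all 8 arrays and Rhag on 7. NZO 011, the mouse with the highest Tfrc, had the lowest summed red cell signal of the NZO mice, but its Alas2 (6.36) was the joint highest with NZO 003 and its Ermap (1.06) the highest of the NZO mice. The part of red cell RNA in the Tfrc and other members' values was not tested. Markers of skeletal muscle were high in NZO 007, where Myh4 reached 2.86 against -2.81 or less in the other NZO mice, and in B6 010, where it was at 1.66 against -0.66 or less in the other B6 mice. The summed muscle signal was 4.15 in NZO 007, 2.51 in B6 010, 0.49 in B6 015 and -0.06 or less in the other mice. Without NZO 007 the Hamp2 difference was 3.06 and without B6 010 it was 2.85. Adipoq, Plin1 and Lep of adipocytes and 4 of 6 pancreas markers were at background on all arrays. The other adipocyte markers were above background on all arrays and none was called. Car3 differed by 0.47 (adjusted p = 0.0133 by limma), with every NZO mouse above every B6 mouse. Cidec differed by 0.42 (adjusted p = 0.245) and Fabp4 by -0.30 (adjusted p = 0.241).

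The lists of related genes were read by each gene's brightest tested probe, in all 93 tested genes of 101 listed. Of these 4 were called higher in NZO (4.3%) and 9 lower (9.68%), where of 20159 named genes, each read by its brightest tested probe, 4.42% were higher and 5.01% lower. The median log2 fold change of the 93 was -0.09 and that of all named genes 0.03. The lower calls include Steap3 and Pcbp2, whose other tested probes went the opposite way, and with the mean over the tested probes of a gene 3 were called higher and 8 lower. The 9 lower calls became 5 without NZO 003, NZO 007, NZO 011 or B6 015. The deposited table as given called 2 higher and 14 lower. With slide as a fixed term 1 was called higher, Alad, and 1 lower, Steap3.

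**Figure D4:**
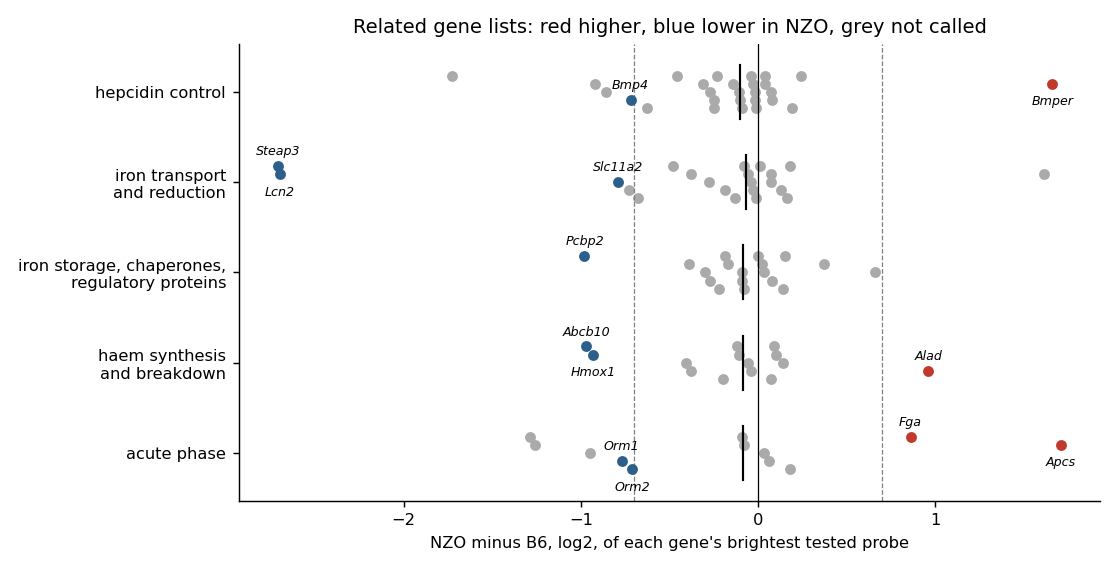
Log2 fold change of NZO against B6 (x axis) of the brightest tested probe of each related gene, by list; red points were called higher, blue lower, grey neither, black bars are list medians and dashed lines the fold limit of 0.7. The medians lie between -0.10 and -0.07, and Steap3 and Lcn2 lie lowest at -2.71 and -2.70.

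Of the genes that control hepcidin 27 of 30 were tested, with 1 called higher, 1 lower and a median of -0.10. Bmper, a secreted protein that binds bone morphogenetic proteins, was higher, at -1.98, -1.42, -1.49 and -0.73 in NZO 007, 003, 009 and 011 and -2.85, -2.61, -3.31 and -3.52 in B6 011, 010, 015 and 009. The strains did not overlap, and the log2 fold change was 1.66 (SE 0.29, adjusted p = 0.00647 by limma), and the call was lost with normexp correction (0.63) and in the deposited table (0.69), both under the fold limit, and with slide as a fixed term (adjusted p = 0.152). Bmp4, another ligand, was lower by -0.72 (SE 0.17, adjusted p = 0.0222), close to the fold limit, and was lost from the call without NZO 007, NZO 009, NZO 011, B6 010 or B6 015. The Bmp4 call was also lost with normexp correction (-0.63), with slide as a random block (-0.66) or a fixed term (-0.39, adjusted p = 0.339), without the filter on dim probes (adjusted p = 0.0665) and by the methods' t-test (adjusted p = 0.0834). Hfe2, the co-receptor hemojuvelin, differed by 0.08 (SE 0.21, adjusted p = 0.831). Tmprss6, the protease that cleaves hemojuvelin and so lowers hepcidin, differed by 0.24 (SE 0.08, adjusted p = 0.103), with every NZO mouse (7.24 to 7.34) above every B6 mouse (6.99 to 7.13). The Tmprss6 difference became 0.08 with quantile normalization and 0.01 in the deposited table. Bambi, Fam132b (erythroferrone) and Il6 were not tested.

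Target genes of the same pathway were also examined, chosen after their values were seen. Id1, a transcriptional inhibitor induced by bone morphogenetic proteins, was at -1.46, -1.64, 0.11 and -1.92 in NZO 007, 003, 009 and 011 and at 0.67, 1.37, -0.22 and 0.20 in B6 011, 010, 015 and 009. Only NZO 009 reached the B6 range, and the log2 fold change was -1.73 (SE 0.49, adjusted p = 0.0513 by limma), just outside the call. Without NZO 009 it was -2.18 (adjusted p = 0.00837), and without any other mouse it was -1.45 to -1.98 with an adjusted p of 0.0514 to 0.123, which is no call. Id1 was called with normexp correction (-1.11), in the deposited table (-1.55) and over probes above background on all 8 arrays (adjusted p = 0.047), and not by the methods' t-test (adjusted p = 0.136), with slide as a fixed term (adjusted p = 0.319) or without the filter on dim probes (adjusted p = 0.119). Atoh8, Smad6 and Smad7, further targets of the pathway, differed by -0.86, -0.46 and -0.31 with adjusted p of 0.156, 0.10 and 0.46. Id2 and Id3, targets on the same list, differed by 0.04 and -0.01 (adjusted p = 0.933 and 0.984). NZO 009 was also the highest NZO mouse for Atoh8 and Smad7, as it was for Hamp and Hamp2. For Smad6 (-0.52), Id2 (4.76) and Id3 (4.72) the highest NZO mouse was NZO 003. Within strains over 8 arrays the r of Hamp was 0.76 with Id1, 0.71 with Smad7, 0.42 with Atoh8 and -0.02 with Smad6, and that of Hamp2 with Id1 was 0.10. The r of Hamp with Id2 or Id3 was not calculated.

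Among genes of iron transport and reduction 22 of 25 were tested, with 0 called higher, 3 lower and a median of -0.07. Steap3, a ferrireductase of endosomes that acts after transferrin uptake, was at -0.35, -0.31, -0.47 and -0.18 in NZO 007, 003, 009 and 011 and at 2.26, 2.45, 2.43 and 2.41 in B6 011, 010, 015 and 009. The gap between strains was many times the spread within them, with a log2 fold change of -2.71 (SE 0.10, adjusted p = 2e-06 by limma). Its other tested probe went the opposite way, by 0.40 (SE 0.09, adjusted p = 0.019), so no direction can be given for the gene. Lcn2, lipocalin 2, which binds the iron carriers of bacteria and rises in inflammation, was lower by -2.70 (SE 0.61, adjusted p = 0.0203), with -0.68 to 0.41 in NZO and 1.13 to 4.28 in B6, highest in B6 015, and was lost from the call without NZO 003, NZO 009 or NZO 011. Slc11a2, the iron importer DMT1, was lower by -0.79 (SE 0.18, adjusted p = 0.0191), with -0.27 at its other probe, and was lost without NZO 003, NZO 007 or B6 015. The Slc11a2 call was also lost with normexp correction (-0.36), in the deposited table (-0.69), with slide as a fixed term (adjusted p = 0.104), without the filter on dim probes (adjusted p = 0.0573) and by the methods' t-test (adjusted p = 0.0842). That of Lcn2 was also lost with slide as a fixed term (adjusted p = 0.262), without the filter (adjusted p = 0.0511) and by the methods' t-test (adjusted p = 0.123), and without B6 015 the Lcn2 change was -2.08. Slc39a14, the importer of iron that is not bound to transferrin, differed by 0.01 (SE 0.16, adjusted p = 0.979), with a sign that turned with the scaling. Cp, ceruloplasmin, the plasma ferroxidase, differed by -0.04 (SE 0.14, adjusted p = 0.884), and its dimmer probe by -1.14 (SE 0.68, adjusted p = 0.322).

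Among genes of iron storage, iron chaperones and iron regulatory proteins 18 of 20 were tested, with 0 called higher, 1 lower and a median of -0.08. The gene was Pcbp2, an RNA-binding protein that also delivers iron to ferritin, by -0.98 (SE 0.11, adjusted p = 0.000661 by limma), and its other probe was called higher by 0.75 (SE 0.10, adjusted p = 0.00198), so that the probes oppose each other.

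Of the 14 genes of haem synthesis and breakdown, all tested, 1 was called higher and 2 lower, with a median of -0.08. Alad, the enzyme after Alas1 in haem synthesis, was higher, at 5.81, 6.05, 5.95 and 5.87 in NZO 007, 003, 009 and 011 and 4.91, 4.91, 4.96 and 5.06 in B6 011, 010, 015 and 009. The strains lay apart with little spread, a log2 fold change of 0.96 (SE 0.09, adjusted p = 0.000294 by limma), and 0.73 (SE 0.39, adjusted p = 0.275) at a dimmer probe. Hmox1, the enzyme that frees iron from haem, was lower, at 2.09, 2.21, 1.81 and 1.95 in NZO 007, 003, 009 and 011 and 3.19, 2.67, 3.15 and 2.78 in B6 011, 010, 015 and 009. No NZO mouse reached the lowest B6 mouse, and the change was -0.93 (SE 0.15, adjusted p = 0.00464), with -0.24 (SE 0.26, adjusted p = 0.605) at a dimmer probe. The Hmox1 call was lost with slide as a fixed term (-0.70, adjusted p = 0.224). Clec4f, Marco and Cd5l, the Kupffer cell markers called above, were lower in the same mice, while Lyz2 was not. The part of Kupffer cells in the Hmox1 difference was not tested. Abcb10, a mitochondrial transporter needed for haem synthesis, was lower by -0.97 (SE 0.12, adjusted p = 0.00111), and was not called with slide as a fixed term. Alas1, the rate-limiting enzyme of the pathway in liver, ranged from 4.73 to 6.93 in NZO and from 4.24 to 7.79 in B6, and differed by -0.41 (SE 0.81, adjusted p = 0.782).

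Of 12 acute phase genes, which like Hamp answer interleukin 6, 2 were called higher and 2 lower, with a median of -0.08. Apcs, serum amyloid P, was higher by 1.71 (SE 0.29, adjusted p = 0.00488 by limma) and Fga, fibrinogen alpha, by 0.86 (SE 0.15, adjusted p = 0.00655), with 0.50 at its other probe and 0.69, under the fold limit, in the deposited table. With slide as a fixed term neither Apcs nor Fga was called. Orm1 and Orm2, the orosomucoids, were lower by -0.77 (SE 0.20, adjusted p = 0.0401) and -0.71 (SE 0.20, adjusted p = 0.0473). Orm1 was lost from the call when any of NZO 003, 007, 009 or 011, or B6 009, 011 or 015, was left out, and so was Orm2. Neither was called with slide as a term or a random block, without the filter on dim probes or by the methods' t-test, by which Fga was not called either (adjusted p = 0.155, 0.173 and 0.0549 for Orm1, Orm2 and Fga). The summed signal of the list, led by Fgb, was 12.56 in B6 015 and 11.93 to 12.25 in the other mice, and Saa1 was at 9.49 in B6 015 and at 8.19 or less elsewhere. B6 015 was also the B6 mouse with the highest Hamp2 (5.61), while its Hamp (6.09) lay between those of the other B6 mice. NZO 009, with the highest Hamp2 of all mice (8.42), had the lowest Saa1 of all (5.83). Within strains the r of Hamp2 with Saa1 was 0.42 over 8 arrays. The part of inflammation in these values was not tested.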

How the data were processed

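Liver RNA of 4 NZO and 4 B6 mice, extracted with TRIzol, was labelled with Cy3 and hybridised to 1-colour Agilent arrays, 1 per mouse. The authors deposited scanner files of intensity values, made with Feature Extraction 11.0.1.1 per the file headers and 9.1 per the submitters' processing notes; the probe coordinates are of mm9. The deposited table of intensity values, called normalized, equals the raw median signals at 59305 of 59305 spots on every array (tolerance 0.01) and served as an alternative only. The processed signal, already corrected for background by the authors' software, was taken as log2, reduced by each array's 75th percentile (119 to 142 in NZO, 136 to 159 in B6) and averaged over the spots of a probe, without outlier spots (96 to 137 per array). From 50.4% to 60.1% of spots were well above background, and 0 were saturated. The number of arrays limits the precision.

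The strains were compared by limma 3.58.1 in R 4.3.3 (lmFit, eBayes) on all 8 arrays, with Benjamini-Hochberg adjustment over all 27643 probes tested, a limit of 0.05 and a log2 fold change of at least 0.7. The script was tested on simulated data. The study's methods name a t-test with Welch correction, a p limit of 0.05 and the same fold limit. It is called here the methods' t-test, and its p was taken here both unadjusted and adjusted. Slides and scan days of the headers were tried as batches. Of mouse numbers shared by the strains, 009 and 011, deviations from the strain means correlated at -0.26 and -0.004. These gave no sign of pairing but are too few to show whether the numbers pair mice.

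All members were named with every probe. Of each related list up to 5 called genes in each direction were named, and always Hfe2, Tmprss6, Slc39a14, Cp, Hmox1 and Alas1. Members and lists were chosen with earlier results of these data known. Promoters were matched by symbol for Hamp and Hamp2. Of the related genes listed 3 had no probe under the listed name. A pair of listed red cell markers is not reported here. Alternatives were another background correction, scaling, filter, batch term, test and leaving out each mouse. Scripts with pandas and matplotlib made the tables and plots.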

Additional observations from a re-analysis of the deposited data

Results flagged for a closer look

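In groups of 4 mice, a level was noted when its gap to the nearest other mouse as a share of the group's range passed Dixon's critical value. Chance does this in about 1 of 20 groups, and here 13 of 150 groups were noted. Among iron genes it was Hamp2 in NZO 009 (8.42, the others 7.29 to 7.44), Hfe2 in NZO 007 (2.40, the others 3.11 to 3.21), Slc39a14 in NZO 007 (3.03, the others 3.29 to 3.34) and Slc11a2 in B6 015 (-0.37, the others -0.70 to -0.67). Without NZO 009 the Hamp2 difference was 2.73 with an adjusted p of 0.00258 by limma.

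Among macrophage and leukocyte markers it was Vsig4 in NZO 003 (4.49), Cd68 in NZO 007 (1.79), C1qb in B6 015 (3.73, the others 3.11 to 3.12) and Itgax in B6 015 (-1.18). The hepatocyte gene Tat was low in B6 011 (5.77), the pancreas genes Ctrb1 and Cela1 were low in B6 011 (-0.23) and B6 015 (-2.55), and the muscle genes Acta1 (2.81) and Tnnt3 (1.27) were high in NZO 007. What sets these mice apart was not tested.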

How the results depend on the processing

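The member count of 1 higher and 0 lower held under all alternatives but a pair: with slide as a fixed term, and with the mouse number as a replicate block, 0 member probes were called. Under the block the Hamp2 change was 3.47 with an adjusted p of 0.0535 by limma. All probes then gave 72 higher and 134 lower calls and the related genes 0 and 0. The strains share only the numbers 009 and 011, so whether the numbers pair the mice cannot be told. Hamp2 ranged from 2.50 to 3.47 over 20 alternatives and was called in 18. Over all probes (1199 higher, 1460 lower) normexp gave 616 and 583 and the values as deposited 576 higher, slide as a fixed term 497 higher, probes above background on all arrays 964 lower and the methods' t-test 890 lower after adjustment (1292 higher and 1610 lower before it); leaving out 1 mouse gave 1056 to 1219 higher and 1221 to 1464 lower. Over the related genes (4 higher, 9 lower) the deposited table gave 2 and 14, slide as a fixed term 1 and 1, no filter 4 lower and the methods' t-test 4 lower; leaving out 1 mouse gave 4 to 5 higher and 5 to 8 lower. The cause of these moves was not tested.

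The deposited table moved the median of all probes to -0.15. Signs turned only at values that were not called. Hamp (0.02) became -0.04 with normexp, -0.09 by quantiles, -0.22 with the table, -0.02 with the percentile over detected probes and -0.01 with scan day, and ranged from -0.18 to 0.23 without 1 mouse. Trf became -0.03 by quantiles and Fth1 -0.15 with the table. Hfe became 0.16 with slide and ranged from -0.12 to 0.04 without 1 mouse. Hfe2 became -0.16 with the table. Slc39a14 became -0.07 with normexp, -0.03 by quantiles and with the other percentile, -0.29 with the table, -0.00165 with slide and -0.04 with scan day, and ranged from -0.08 to 0.14 without 1 mouse. Cp became 0.02 with slide, 0.06 with the block and -0.11 to 0.05 without 1 mouse. Alas1 became 1.1 with slide and ranged from -1.20 to 0.07 without 1 mouse. Of single genes' values under alternatives, 591 kept direction and side, 72 lost the call and 6 gained it.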
